A study of Mus musculus with 4 samples.

Results

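The SREBP control genes are described here in liver of ob/ob mice, across 4 groups that differ in diet and in dietary oxysterol. The set holds 6 genes of the 24346 listed, chosen by symbol: Srebf1, Srebf2, Scap, Insig1, Insig2 and the sterol carrier gene Stard4. All 6 were above 0 FPKM (fragments per kilobase of transcript, scaled to the mapped fragments of the library) in every library. The mice were male ob/ob animals, which are obese because they lack leptin, so that every group shares the leptin deficiency. From 6 weeks of age they ate for 4 weeks a chow diet (CD) or a western type diet rich in fat and sucrose (WD), each with 1% cholesterol. The oxidized cholesterol 7-ketocholesterol (7KC) made up 0.01% of the food in CD+7KC and WD+7KC. RNA sequencing covered 1 liver library per group, and the number of mice behind a library was not stated. Within the sequencing data no difference below therefore has a replicate check, no test was run, and every fold change compares 2 libraries only. The paper also measured some genes of fatty acid and cholesterol synthesis, Fasn among them, by quantitative PCR in replicate mice of these groups. Those measurements were not used here.

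SREBPs are transcription factors made as precursors in the membrane of the endoplasmic reticulum. Scap binds them and escorts them to the Golgi apparatus, where proteases release the part that enters the nucleus. When membrane sterol is high, Insig proteins hold Scap back, and many oxysterols act by binding Insig. In liver, SREBP-1c, a product of Srebf1, mainly drives genes of fatty acid synthesis, and SREBP-2, the product of Srebf2, mainly drives genes of cholesterol synthesis and uptake. Insig1 and Stard4 are SREBP targets themselves, while a liver transcript of Insig2 is known to be lowered by insulin. Because the pathway is set by protein movement and cleavage, mRNA levels show the supply of its parts and do not measure its activity directly.

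The genes lie on different chromosomes of GRCm38 (mm10), and all are protein coding. Srebf1 spans chr11:60199089-60222581, Srebf2 chr15:82147181-82205379, Scap chr9:110333288-110384950, Insig1 chr5:28071363-28078662 and Insig2 chr1:121304353-121332589. Srebf1, Insig2 and Stard4 are on the minus strand. The 3′ end of Srebf1 overlaps Rai1 on the opposite strand, the Insig2 locus holds the opposite-strand model Gm37174 and the Scap locus the model 5830462I19Rik, and whether the FPKM step used the strand was not stated. Srebf2 carries the microRNA gene Mir33 (chr15:82198122-82198190) in its span, and Mir33 was listed at 0 FPKM in all 4 libraries, which were made from mRNA.

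RefSeq lists 3 start sites for Insig2, 3 for Srebf1, 2 for Scap and 1 each for Insig1 and Srebf2, and the deposited values give 1 number per gene, so that transcripts from different starts cannot be told apart. The stretches before the starts of Srebf2, Insig1 and Insig2 are shown because they carry the sequence features of the sterol-regulated genes next to those of the gene whose level differed most. They come from RefSeq on GRCm38.p6 and read 5′ to 3′ on the strand of the gene. Capitals mark matches on either strand to TCACCCCA (the core of a sterol regulatory element), CACGTG (an E-box), CCAAT (the CCAAT box), GGGCGG (the GC box) or AGGTCA (a nuclear receptor hexamer).
Srebf2, chr15:82147094-82147143: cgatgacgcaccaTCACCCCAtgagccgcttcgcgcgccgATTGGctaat
Insig1, chr5:28071282-28071326: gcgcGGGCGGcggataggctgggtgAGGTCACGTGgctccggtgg
Insig2 most upstream start, chr1:121332605-121332734: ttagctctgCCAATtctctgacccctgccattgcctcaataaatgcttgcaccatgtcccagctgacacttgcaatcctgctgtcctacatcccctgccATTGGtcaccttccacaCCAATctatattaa
Insig2 middle start, chr1:121328025-121328069: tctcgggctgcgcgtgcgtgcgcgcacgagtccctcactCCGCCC
Insig2 downstream start, chr1:121327794-121327838: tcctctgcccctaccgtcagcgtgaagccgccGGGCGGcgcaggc

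Among the 250 bases before the start, TCACCCCA matched at Srebf2 and at no other window of Srebf1, Scap, Insig1 or Insig2. It was present in 1.34% of 32851 promoter windows of the same length. In the Srebf2 stretch it lies a short way before an inverted CCAAT box, a motif found in 33.8% of windows. The Insig1 stretch holds CACGTG (6.02% of windows) overlapping AGGTCA (14.0% of windows) in their shared letters CA. The windows of the middle and downstream Insig2 starts matched only the GC box (32.7% of windows), and that of the most upstream start matched only the CCAAT box. These matches describe letters and do not show binding.

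Steps between low FPKM values placed the depth at an estimated 11000000 fragments in the CD and CD+7KC libraries, 9410000 in WD and 12100000 in WD+7KC. The sums of FPKM ran from 602059 in WD+7KC to 715605 in CD. Because of the low sum in WD+7KC, rescaling to equal sums (TPM) moved the median over all genes, on the log2 scale, from 0.002 to 0.21 in WD+7KC relative to WD and from 0.003 to 0.20 in WD+7KC relative to CD+7KC. Member and list values that involve the WD+7KC library are therefore given on both scales in most places where rescaling moves their sign or their count. Of the hepatocyte markers Alb, Apoa1, Ttr, Apob, Cyp3a11 and Serpina1c all were above 0 FPKM, and they summed to 55252 FPKM with CD, 46931 FPKM with CD+7KC, 55663 FPKM with WD and 43020 FPKM with WD+7KC. With 7KC 6 of the 6 were lower under CD and 5 of the 6 under WD. Macrophage and Kupffer cell markers summed to 87.4 FPKM with CD, 167 FPKM with CD+7KC, 176 FPKM with WD and 366 FPKM with WD+7KC, with all 9 above 0 everywhere, and 4 sinusoidal endothelial markers to 45.7, 68.3, 37.4 and 101 FPKM in that order. Of 3 adipocyte markers Plin1 was at 0 throughout and Adipoq at 0.09 FPKM or less, while Fabp4, which macrophages also express, had 83.5, 66.5, 104 and 143 FPKM. The part of these cell types in the values below was not tested, and in whole liver fewer cells of a type and less RNA per cell cannot be told apart.

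The genes of SREBP control differed little between the libraries, apart from Insig2. The highest level of a gene was between 1.06 times (Insig1) and 1.36 times (Stard4) its lowest for 5 of the 6 genes, and 1.94 times for Insig2. After rescaling to equal sums Srebf1 had the narrowest range (1.13 times), Srebf2 reached 1.47 times and Insig2 stayed the widest at 1.63 times. Insig2 was the most abundant by FPKM, at a level above 95.6% to 97.2% of the genes detected in a library. Srebf1 and Insig1 followed at about the level of each other, above 91.9% to 93.1% of genes, then Scap at 17.4 to 19.6 FPKM. Stard4 and Srebf2 were the lowest, and their ranges, 7.13 to 9.69 FPKM and 5.46 to 7.32 FPKM, overlapped.

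**Figure D1:**
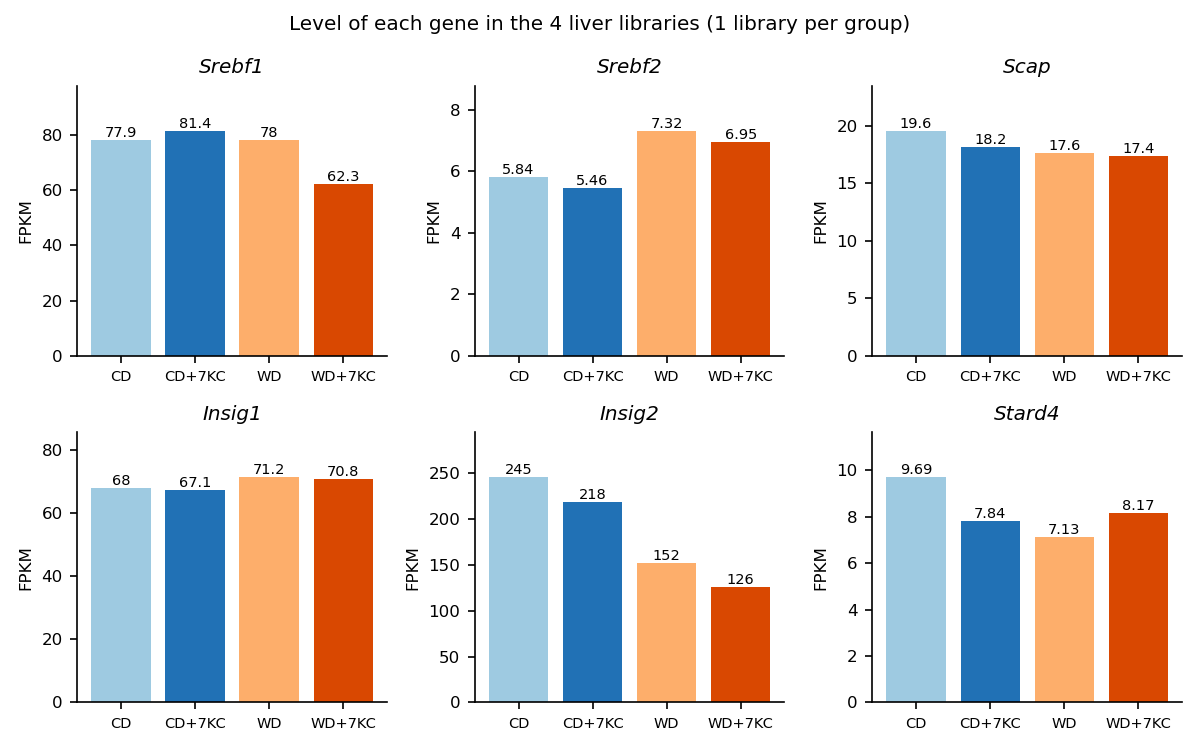
FPKM of the 6 genes (vertical axes, each from 0) in the CD, CD+7KC, WD and WD+7KC libraries, 1 bar per library and no error bar because each group had 1 library. Insig2 steps down from 245 in CD to 126 in WD+7KC, while Insig1 stays between 67.1 and 71.2.

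Insig2, an anchor that retains Scap in the endoplasmic reticulum, was the gene that differed most between the diets. Its level was 245 FPKM with CD and 218 FPKM with CD+7KC, against 152 FPKM with WD and 126 FPKM with WD+7KC. Both WD libraries were lower than both CD libraries. In WD relative to CD the log2 fold change was -0.69 (95% counting interval -0.82 to -0.55), a level 1.61-fold lower, and after rescaling to equal sums it was -0.65. In WD+7KC relative to CD+7KC it was -0.79 (-0.92 to -0.65), or 1.73-fold lower, and -0.58 after rescaling. The counting intervals are exact (Clopper-Pearson), rest on 679 to 1274 reads estimated from the shortest Insig2 transcript, and cover counting error only, not differences between mice.

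Within each diet the library with 7KC was the lower of the pair, as were the summed hepatocyte markers, whose part in this was not tested. The log2 fold change of Insig2 with 7KC was -0.17 under CD (-0.29 to -0.05) and -0.27 under WD (-0.42 to -0.12). After rescaling these became -0.13 and -0.05, and the rescaled interval under WD, -0.21 to 0.10, included 0. A lower Insig2 level with 7KC under WD is thus not separable from the scaling of the libraries, while the difference between the diets was of similar size under both scalings in WD relative to CD.

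Insig1, the other anchor and itself an SREBP target, was level across the groups. It read 68.0 FPKM with CD, 67.1 FPKM with CD+7KC, 71.2 FPKM with WD and 70.8 FPKM with WD+7KC. The largest of its 4 log2 fold changes was 0.08 (-0.01 to 0.17), in WD+7KC relative to CD+7KC. After rescaling that value was 0.29 (0.20 to 0.38), and WD+7KC relative to WD went from -0.01 to 0.21, which is the shift of all genes.

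The ratio of the 2 anchors within a library does not depend on how that library was scaled. Insig2 exceeded Insig1 by 3.60 times with CD, 3.25 times with CD+7KC, 2.14 times with WD and 1.78 times with WD+7KC. Insig2 made up 78.3%, 76.5%, 68.1% and 64.1% of the summed Insig level in the same order. The sum of the anchors per Scap followed, from 16.0 in CD to 11.4 in WD+7KC, with 15.7 in CD+7KC and 12.7 in WD. The order of the ratios was therefore CD, CD+7KC, WD, WD+7KC, from the highest share of Insig2 to the lowest. Insig2 has 4 RefSeq-linked transcripts of 674 to 2697 bases, and Insig1 has 1 of 2697 bases. The FPKM of Insig2, its share and its difference between the diets thus also depend on how reads were assigned to transcripts, which was not tested. Read numbers were themselves calculated from FPKM and an assumed transcript length. With the shortest Insig2 transcript assumed, Insig2 was below Insig1, with 1274 against 1862 in CD. A longer transcript gives more reads for the same FPKM, so these numbers do not settle the order of the 2 genes.

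**Figure D2:**
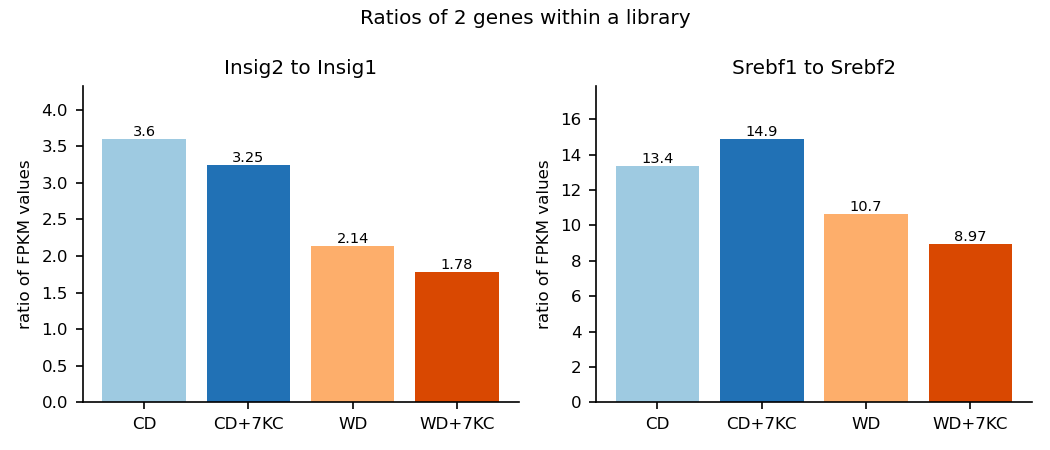
Ratio of FPKM values of Insig2 to Insig1 (left) and of Srebf1 to Srebf2 (right) in each library, with axes from 0 and no error bars because each group had 1 library. Insig2 to Insig1 is 3.60 and 3.25 in the CD libraries and 2.14 and 1.78 in the WD libraries, and Srebf1 to Srebf2 is lowest, at 8.97, in WD+7KC.

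The profile of Insig2 over the 4 libraries was set beside those of 10686 genes whose mean was 1 FPKM or more, and was nearest to Slc27a5, Eif4a2 and Ugt2b35. Likeness was the distance between log2 profiles centred on their own means, which was 0.029 for Slc27a5, 0.049 for Eif4a2 and 0.059 for Ugt2b35, and 90 genes lay within 0.2. Slc27a5, which encodes a bile acid CoA ligase of the liver, had 377 FPKM with CD, 338 with CD+7KC, 235 with WD and 191 with WD+7KC. Eif4a2, an RNA helicase of translation initiation, went from 148 FPKM with CD to 74.9 with WD+7KC, and Ugt2b35, a glucuronosyltransferase of a multigene family whose reads may be shared, from 86.8 to 44.9. With 4 libraries many genes share such a profile.

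Srebf1, which encodes SREBP-1a and SREBP-1c, was nearly equal in the groups without 7KC. It was measured at 77.9 FPKM with CD, 81.4 FPKM with CD+7KC, 78.0 FPKM with WD and 62.3 FPKM with WD+7KC. Only the WD+7KC library stood lower. The log2 fold change in WD relative to CD was 0.001 (-0.07 to 0.07). With 7KC it was 0.06 under CD (-0.01 to 0.13) and -0.32 under WD (-0.40 to -0.25). After rescaling to equal sums the value under WD was -0.11 (-0.18 to -0.03), beside a rescaled value of 0.10 under CD. In WD+7KC relative to CD+7KC it was -0.38, or -0.17 after rescaling.

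Srebf2, the gene of SREBP-2, was higher in both WD libraries than in both CD libraries. It gave 5.84 FPKM with CD, 5.46 FPKM with CD+7KC, 7.32 FPKM with WD and 6.95 FPKM with WD+7KC. In WD relative to CD the log2 fold change was 0.32 (0.10 to 0.55), and in WD+7KC relative to CD+7KC it was 0.34 (0.13 to 0.57), or 0.36 and 0.55 after rescaling. The change with 7KC was -0.09 under CD (-0.33 to 0.14) and -0.07 under WD (-0.29 to 0.14), where a difference was not detectable with 293 to 411 estimated reads, and the sign under WD turned with rescaling (0.14). Srebf1 exceeded Srebf2 by 13.4 times with CD, 14.9 times with CD+7KC, 10.7 times with WD and 8.97 times with WD+7KC. The share of Srebf2 in the summed Srebf level was 6.97% and 6.29% in the CD libraries and 8.57% and 10.0% in the WD libraries.

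Scap, the escort, varied least after Insig1 in the deposited values, and least after Srebf1 once rescaled. Its values were 19.6 FPKM with CD, 18.2 FPKM with CD+7KC, 17.6 FPKM with WD and 17.4 FPKM with WD+7KC. The log2 fold changes ran from -0.15 (-0.30 to -0.003) in WD relative to CD to -0.02 (-0.17 to 0.13) in WD+7KC relative to WD. After rescaling the latter was 0.19 (0.05 to 0.34), again near the shift of all genes, and WD+7KC relative to CD+7KC turned from -0.07 to 0.14.

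Stard4, a soluble carrier that moves sterol between membranes, was highest in CD. It reached 9.69 FPKM with CD, 7.84 FPKM with CD+7KC, 7.13 FPKM with WD and 8.17 FPKM with WD+7KC. The library with 7KC was lower than its partner under CD and higher under WD. The log2 fold change with 7KC was -0.30 under CD (-0.49 to -0.12), and 0.19 under WD (-0.01 to 0.40) or 0.41 (0.20 to 0.62) after rescaling. In WD relative to CD it was -0.44 (-0.64 to -0.24), and in WD+7KC relative to CD+7KC 0.06 (-0.13 to 0.25), or 0.27 (0.08 to 0.46) after rescaling. Stard4 rested on 329 to 520 estimated reads per library.

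**Figure D3:**
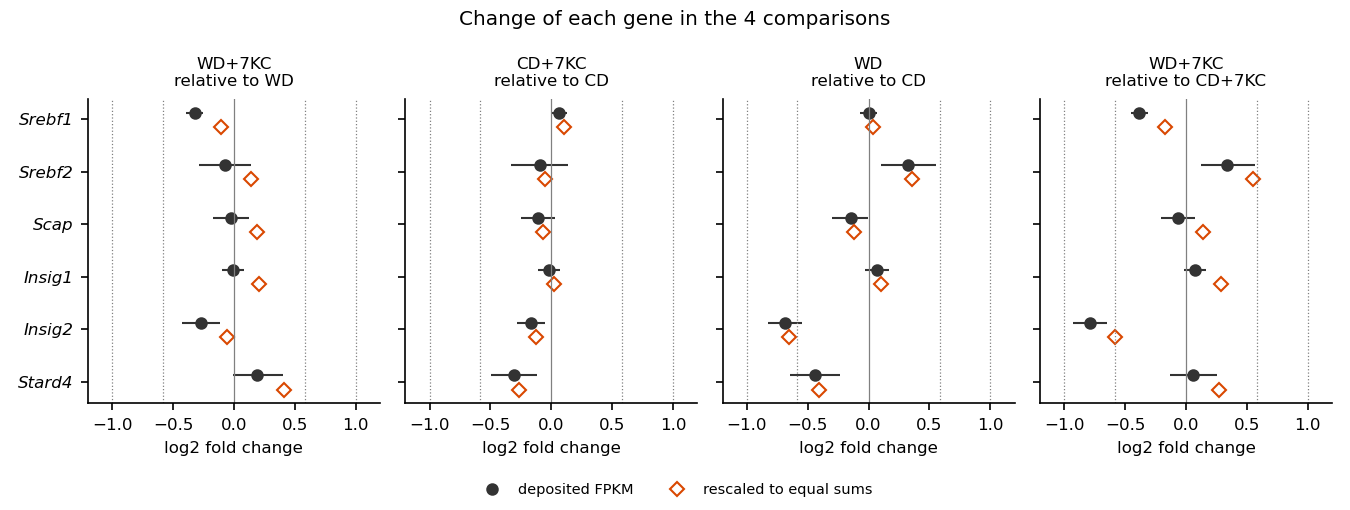
Log2 fold change of the 6 genes (horizontal axes) in the 4 comparisons. Filled circles show deposited FPKM with 95% counting intervals as bars, open diamonds show values rescaled to equal sums, and dotted lines mark a 1.5-fold difference and a log2 fold change of 1 in each direction. No gene passes 1, and Insig2 is more than 1.5-fold lower in both comparisons of the diets with the deposited values.

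The study selected genes by a log2 fold change above 1, and that size and a 1.5-fold difference are used here in both directions. In WD+7KC relative to WD, 0 of the 6 genes lay past it in either direction, where 6.21% of 15753 genes lay above 1 and 2.79% below -1. At 1.5-fold the count was again 0, against 14.2% of genes higher and 6.86% lower. In CD+7KC relative to CD, 0 of the 6 passed 1 (3.84% of 15684 genes above, 2.91% below) and 0 passed 1.5-fold (10.4% higher, 7.11% lower). In WD relative to CD, 0 of the 6 passed 1 (5.31% of 15597 genes above, 4.38% below) and only Insig2 passed 1.5-fold, as did 10.8% of genes in the lower and 13.5% in the higher direction. In WD+7KC relative to CD+7KC, 0 of the 6 passed 1 (8.01% of 15898 genes above, 4.61% below) and Insig2 was again more than 1.5-fold lower (11.4% of genes lower, 17.5% higher), but not after rescaling. Among genes with at least 1 FPKM in either library, 7.55% were more than 1.5-fold lower in WD relative to CD and 8.75% in WD+7KC relative to CD+7KC. A count of 1 in 6 genes does not stand apart from these shares. The comparisons of the diets share libraries with those of 7KC and are not independent of them.

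As a group the 6 genes stayed near the median of all genes. Their median was -0.05 on the log2 scale in WD+7KC relative to WD (1 higher, 5 lower), -0.10 in CD+7KC relative to CD (1 higher, 5 lower), -0.07 in WD relative to CD (3 higher, 3 lower) and -0.003 in WD+7KC relative to CD+7KC (3 higher, 3 lower). The medians of all genes were 0.002, -0.001, 0.010 and 0.003 in the same order. After rescaling, the median of the 6 genes in WD+7KC relative to WD was 0.17 beside 0.21 for all genes, and in WD+7KC relative to CD+7KC 0.21 beside 0.20.

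The genes that act on SREBP, Scap and Insig proteins after translation mostly differed little, apart from Pgrmc1. Of 10 such genes, none passed 1 in any of the 4 comparisons, whose shares over all genes are given above. The 10 include the Golgi proteases Mbtps1 and Mbtps2 and the ubiquitin ligases Rnf139 and Syvn1. Their median was -0.09 in WD relative to CD, with 4 higher and 6 lower, and -0.14 in WD+7KC relative to WD, with 2 higher and 8 lower, or 0.08 with 8 higher and 2 lower after rescaling. Rnf145, a ligase linked to Scap, had the largest value in WD relative to CD, 0.35 (0.18 to 0.51), with 582 estimated reads in CD and 635 in WD. Pgrmc1, a haem-binding membrane protein reported to bind Insig1, had the smallest, -0.38, with 1220 FPKM in CD and 936 FPKM in WD, and like Insig2 it was lowest in WD+7KC, at 722 FPKM. Pgrmc1 was at -0.77 in WD+7KC relative to CD+7KC, or 1.70-fold lower, and at -0.56 after rescaling. It was the only gene of the 10 past 1.5-fold in any comparison of deposited values. Fbxw7, a ligase subunit that targets nuclear SREBP, was the highest in WD+7KC relative to WD at 0.28 on only 40 and 64 reads. The 10 genes of the COPII coat, which carries Scap and SREBP out of the endoplasmic reticulum, stayed between -0.39 (Sec24b) and 0.34 (Sec24c) in WD relative to CD and between -0.23 (Sec24d) and 0.26 (Sec23b) in WD+7KC relative to WD, where 4 were higher and 6 lower as deposited and 8 higher and 2 lower after rescaling.

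The enzymes of cholesterol synthesis, targets of SREBP-2, were mostly higher in the WD libraries. Srebf2 was also higher, at 0.32 on the log2 scale in WD relative to CD and 0.34 in WD+7KC relative to CD+7KC. The genes of SREBP control as a set were split, with 3 higher and 3 lower in each of these comparisons as deposited. Of the SREBP targets among them, Stard4 was at -0.44 in WD relative to CD and 0.06 in WD+7KC relative to CD+7KC as deposited. Insig1 was at 0.07 and 0.08 in the same order. Of 19 enzymes, 16 were higher and 3 lower in WD relative to CD, with a median of 0.29. Above 1 were 2 of them, against 5.31% of all genes. Sqle, the squalene epoxidase gene, had the largest difference, with 1.18 FPKM with CD and 3.90 FPKM with WD, a value of 1.65 on the log2 scale from 33 and 94 estimated reads. Mvk, which encodes mevalonate kinase, was the other above 1 at 1.21 (0.75 to 1.74), and Tm7sf2, a sterol reductase gene, was the lowest at -0.42. In WD+7KC relative to CD+7KC, the median was 0.22, with 14 higher and 5 lower. After rescaling it was 0.43, with 17 higher and 2 lower, beside a rescaled median of 0.20 over all genes. As deposited, Sqle and Fdps, the farnesyl diphosphate synthase gene, were above 1 there at 2.69 and 1.13, as were 8.01% of all genes. After rescaling Mvd also passed 1, at 1.12 from 0.91 as deposited. With 7KC under WD the median of the enzymes was -0.01, with 9 higher and 10 lower, but 0.21, with 15 higher and 4 lower, after rescaling, close to the shift of all genes. As deposited the enzymes ran from Mvk at -0.70 to Mvd, the mevalonate diphosphate decarboxylase gene, at 1.07. With 7KC under CD the median was -0.06, with 7 higher and 12 lower.

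Genes of fatty acid synthesis, targets of SREBP-1c, went in both directions between the diets while Srebf1 was equal. Of 14 genes, 5 were higher and 9 lower in WD relative to CD, with a median of -0.44. Over all genes 5.31% lay above 1 there and 4.38% below -1. Fads1, a fatty acid desaturase gene, was above 1 with 75.5 FPKM with CD and 184 FPKM with WD (1.28), and its neighbour in the pathway Fads2 was at 0.90. Thrsp, a lipogenic regulator, was below -1 with 928 FPKM with CD and 410 FPKM with WD (-1.18), as was the elongase gene Elovl6, with 81.2 FPKM with CD and 37.8 FPKM with WD. In WD+7KC, where Srebf1 was lowest, 9 of the 14 were higher and 5 lower than in WD, with a median of 0.18 and none past 1. Over all genes 6.21% lay above 1 in that comparison and 2.79% below -1. After rescaling the median of the 14 was 0.39, with 12 higher and 2 lower, beside a rescaled median of 0.21 over all genes. Fasn, the fatty acid synthase gene, had the largest value there, 0.58 (0.79 after rescaling), and Thrsp the smallest, -0.32. Under CD, 12 of the 14 were higher with 7KC, with a median of 0.09.

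**Figure D4:**
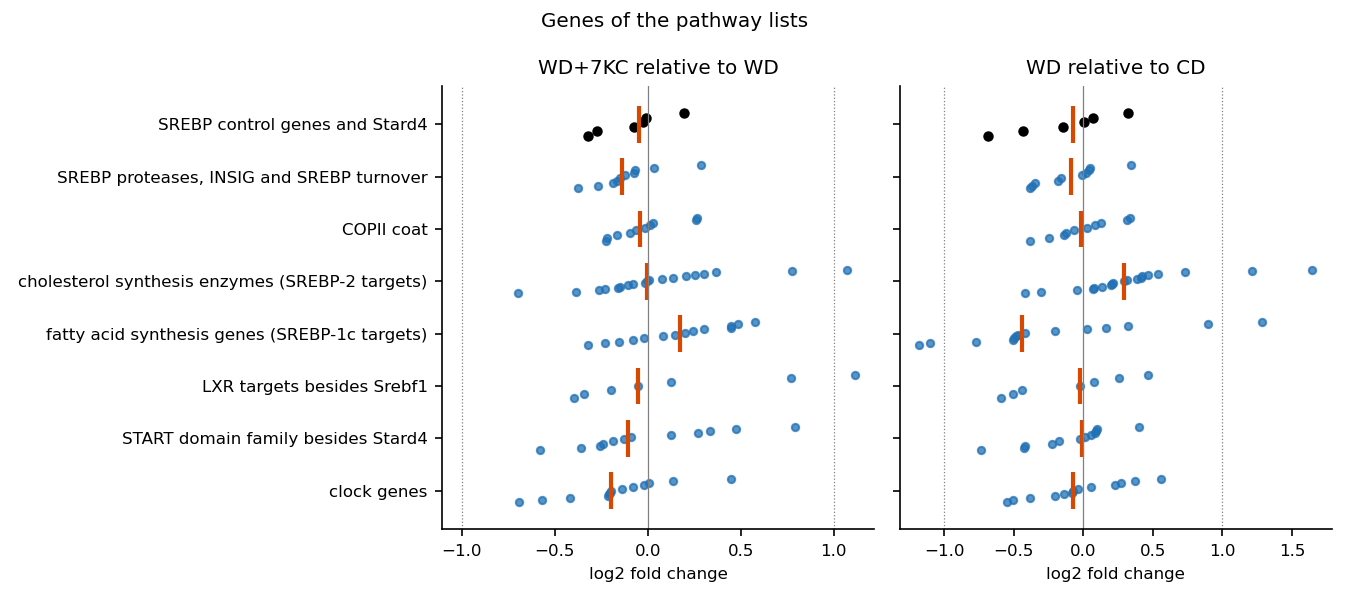
Log2 fold change (horizontal axes) of each gene of the pathway lists, from deposited FPKM, in WD+7KC relative to WD (left) and in WD relative to CD (right), with the 6 SREBP control genes in black, the other genes in blue and the median of each row as an orange bar. Dotted lines mark 1 in each direction. The cholesterol synthesis row has its median at 0.29 on the right and at -0.01 on the left, and the fatty acid synthesis row at -0.44 and 0.18.

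The liver X receptors, which respond to oxysterols and drive Srebf1, have other targets to set beside it. Of 7 such genes 3 were higher and 4 lower in WD+7KC relative to WD (median -0.05, or 0.16 with 5 higher and 2 lower after rescaling), and 5 were higher with 7KC under CD, with a median of 0.03. Abcg1, a sterol exporter that macrophages also express, was the only gene of the 7 past 1 in WD+7KC relative to WD, at 1.11. It had 2.07 FPKM with WD and 4.58 FPKM with WD+7KC, and 6.21% of all genes were above 1 there. Abcg8 was the lowest there at -0.40, or -0.18 after rescaling, and its partner in biliary sterol export, Abcg5, was the lowest in WD relative to CD at -0.59. The macrophage markers were higher beside Abcg1 in the same library, 366 against 176 FPKM in sum, and their part in its value was not tested.

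Relatives of Stard4 with a START lipid-binding domain did not share its profile as a group. Of 12 that were above 0, 10 averaged 1 FPKM or more, and the signs of the others rest on 1 to 17 estimated reads per library. Among the 12, 6 were higher and 6 lower in WD relative to CD (median -0.01). In WD+7KC relative to WD 5 were higher and 7 lower (median -0.11, or 0.11 with 8 higher and 4 lower after rescaling). Under CD 8 were higher with 7KC (median 0.15). Stard5, a close relative of Stard4, was at 57.2 FPKM with CD, 52.4 FPKM with CD+7KC, 75.4 FPKM with WD and 50.3 FPKM with WD+7KC. Its log2 values, 0.40 in WD relative to CD and -0.58 in WD+7KC relative to WD (-0.37 after rescaling), had signs opposite to those of Stard4. In CD+7KC relative to CD both were lower, at -0.13 for Stard5 and -0.30 for Stard4. Acot11 was the lowest in WD relative to CD (-0.74), and Stard8 the highest in WD+7KC relative to WD (0.79, or 1.02 after rescaling).

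Insig2 and the SREBP pathway follow the time of day in liver, so clock genes were read beside them. Of 13 clock genes, 5 were higher and 8 lower in WD relative to CD (median -0.08), from Clock at -0.55 to Per1 at 0.56, and none passed 1 in any comparison. In WD+7KC relative to WD 3 were higher and 10 lower (median -0.20, or 0.02 with 9 higher and 4 lower after rescaling), from Ciart at -0.69 to Per2 at 0.45. Of the same 13, 2 were higher and 11 lower in WD+7KC relative to CD+7KC, from -0.80 to 0.36. The median there was -0.26, or -0.05 with 4 higher and 9 lower after rescaling. As deposited 2 of them were more than 1.5-fold lower, as were 11.4% of all genes. The part of sampling time in the values of Insig2 was not tested.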

How the data were processed

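Stranded mRNA libraries of liver were sequenced as 75-base single-end reads. The authors mapped them to mm10 with TopHat2 2.0.13, Bowtie2 2.2.3 and SAMtools 0.1.19, computed FPKM with Cufflinks 2.2.1, and deposited a single FPKM value for each gene symbol in each library, per the submitters' processing notes and methods. The gene annotation and Cufflinks options are not given in the sources used here. A pseudocount of 0.1 FPKM was added before log2 fold changes were taken, so that differences of low genes are understated, for genes above 0 FPKM in either library. Depth was estimated as the number of fragments that makes FPKM times (transcript length minus 200 bases) nearest to whole reads, over 15795 genes with a single RefSeq-linked transcript in GENCODE vM21. Of the low values (up to 8 reads), 71.8% to 73.1% lay within 0.1 of a whole number. Reads of a gene were estimated from its shortest RefSeq-linked transcript, and counting intervals are exact (Clopper-Pearson, 95%) and hold for the stated scaling.

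Members and gene lists were chosen with earlier results of these data known. Named in the text were the 6 members, the largest and smallest value of each list in WD+7KC relative to WD and in WD relative to CD for genes averaging 1 FPKM or more, and the 3 profiles nearest to a member whose highest level was at least 1.5 times its lowest. Fdps, Fads2, Elovl6, Mbtps1, Mbtps2, Rnf139 and Syvn1 were named after their values were seen. Some genes of the pathway are not reported here. The list gene Stard9 and the marker Tf had no entry under those symbols. The code was tested on simulated data. Python 3.11.15, numpy 2.4.6, pandas 2.3.3, scipy 1.17.1 and matplotlib 3.10.9 were used.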

Additional observations from a re-analysis of the deposited data

Results flagged for a closer look

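The change with 7KC had opposite signs under the diets for 2 of the 6 genes in the deposited values, and for 4 after rescaling to equal sums, a difference that was not tested because each group had 1 library. For Srebf1 the log2 fold change was -0.32 under WD and 0.06 under CD, a difference of -0.39, or -0.21 after rescaling to equal sums. For Stard4 it was 0.19 under WD and -0.30 under CD, a difference of 0.50, or 0.67 after rescaling. Rescaling added Srebf2 (0.14 under WD and -0.05 under CD) and Scap (0.19 and -0.07), whose deposited values were negative under both diets. Their rescaled values under WD lay below the rescaled median of all genes there, 0.21, so these turned signs go with the shift of all genes. The counting intervals of the paired values did not overlap for Srebf1 or for Stard4. Those of Srebf2 and of Scap overlapped under both scalings. Of the lists, the median change with 7KC had opposite signs for LXR targets (difference -0.086), for the START domain family (-0.26) and for clock genes (-0.26), also untested. After rescaling the medians under WD, 0.16 for LXR targets, 0.11 for the START domain family and 0.02 for clock genes, had the same sign as those under CD. Rescaling in turn gave opposite signs to 3 other lists. Their medians under WD and CD were 0.08 and -0.04 for proteases and turnover, 0.18 and -0.007 for the COPII coat, and 0.21 and -0.02 for cholesterol synthesis. None of these values under WD was above the rescaled median of all genes.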

How the results depend on the processing

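No paired analysis was possible because each group had 1 library, and for the same reason no library could be left out. The alternatives were a pseudocount of 1 or 0.01, rescaling to equal sums, to the upper quartile, by median ratios or to equal sums without the 20 genes of highest mean FPKM, a filter at 1 FPKM and a threshold of 1.5-fold. The lists, the named genes and the diet differences were added to these after the data were seen. The median of the 6 genes in WD+7KC relative to WD became 0.17 with equal sums and 0.12 with equal sums without the highest genes, and in WD+7KC relative to CD+7KC it became 0.21 and 0.19, a move that the lower FPKM sum of WD+7KC sets. With the threshold of 1.5-fold the count of genes below it became 1 in each comparison of the diets. A pseudocount of 1 brought the ratio of Srebf1 to Srebf2 to 11.5 with CD, 12.7 with CD+7KC, 9.50 with WD and 7.97 with WD+7KC. The sign of Srebf2, Scap and Insig1 in WD+7KC relative to WD turned under some scalings, as did 1 gene in each other comparison. Insig2 kept its sign in all 4 comparisons under the 6 scalings and pseudocounts, from -0.71 to -0.65 in WD relative to CD and from -0.79 to -0.58 in WD+7KC relative to CD+7KC. With 1 library per group, depth limits counting error only.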
